A study of Mus musculus with 4 samples.

Results

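The adrenomedullin system was followed from d2 to d4 of the differentiation of mouse embryonic stem cells (mESC) through 5 genes: Adm, which encodes the peptide adrenomedullin, Calcrl, which encodes its receptor, and Ramp1, Ramp2 and Ramp3, which encode the proteins that escort that receptor to the cell surface. The members were chosen by gene symbol, and all 5 were found among the 55487 genes of the count table. Of these, 4 passed a filter on low counts. Adm, Calcrl and Ramp2 were higher at d4, Ramp3 was lower, and Ramp1 was hardly detected on either day.

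The cells were E14-Tg2a (ES-E14TG2a) mESC, an established mouse embryonic stem cell line labelled as wild type. At d2 the cells had spent 48 h as embryoid bodies (EBs) in medium without serum. For d4, d2 EBs were dissociated and left to reaggregate for 40 h in the presence of VEGF (5 ng/ml), BMP4 (0.5 ng/ml) and Activin A (8 ng/ml). There were 2 libraries per day, which by the study's methods came from 2 independent differentiation experiments, and the day, the factors and the reaggregation cannot be told apart. P-values measure the spread between these 2 libraries of 1 line.

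Adrenomedullin is a peptide hormone that widens blood vessels and is needed for the growth of embryonic blood and lymphatic vessels. Its receptor CALCRL is a G protein-coupled receptor that reaches the cell surface only with a receptor activity-modifying protein (RAMP), and the RAMP decides which peptide is bound best. With RAMP2 or RAMP3 it is a receptor for adrenomedullin, and with RAMP1 it is a receptor for calcitonin gene-related peptide (CGRP). The receptor signals mainly through Gs and cyclic AMP. RAMPs also pair with the calcitonin receptor, which then becomes a receptor for amylin.

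Adm (ENSMUSG00000030790.15) lies at chr7:110627661-110629820 on the plus strand of GRCm38, Calcrl (ENSMUSG00000059588.13) at chr2:84330626-84425411 on the minus strand, and Ramp1 (ENSMUSG00000034353.14) at chr1:91179822-91225196 on the plus strand. Ramp2 (ENSMUSG00000001240.13) at chr11:101246028-101259546 and Ramp3 (ENSMUSG00000041046.7) at chr11:6658521-6677475 are both on the plus strand of chromosome 11. All are protein-coding. Values below are counts over all exons of a gene. In GENCODE M21, 1103 bp, or 33.4% of the merged exons of Ramp2, also belong to Vps25 on the same strand, and by the study's methods reads that overlap several genes were not counted. Vps25 itself had 5 to 10 counts per library, and how many reads of Ramp2 were left out was not tested. Ramp3 shares 101 bp with a pseudogene on the opposite strand, Gm11978, which strand-specific counting keeps apart.

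RefSeq promoter windows (GRCm38.p6) were at hand for 4 of the 5 members, Ramp2 being the exception. The windows of the 3 members that changed are shown because they moved in opposite directions. Each window ends before the most upstream GENCODE start of the gene. A further stretch of Calcrl is shown around its match, which lies between the GENCODE start and the RefSeq start and so within the gene as GENCODE gives it. Capitals mark the letters AGGAAG, searched as a form of an ETS factor motif, on either strand. Other forms of ETS motifs were not searched and are not marked. These are 250 bases at chr7:110627407-110627656 (plus strand), 105 bases at chr2:84425412-84425516 (minus strand), the 30-base stretch around the match at chr2:84425315-84425344 (minus strand) and 238 bases at chr11:6658283-6658520 (plus strand).
Adm: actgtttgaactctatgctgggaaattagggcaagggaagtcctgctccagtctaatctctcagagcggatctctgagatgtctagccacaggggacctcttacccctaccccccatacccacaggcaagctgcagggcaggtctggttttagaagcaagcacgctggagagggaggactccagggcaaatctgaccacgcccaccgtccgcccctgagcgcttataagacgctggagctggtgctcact
Calcrl: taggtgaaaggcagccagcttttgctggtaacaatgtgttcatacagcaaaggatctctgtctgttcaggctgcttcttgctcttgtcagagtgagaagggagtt
Calcrl match: gggtgatgtaacAGGAAGctgtgatgtttc
Ramp3: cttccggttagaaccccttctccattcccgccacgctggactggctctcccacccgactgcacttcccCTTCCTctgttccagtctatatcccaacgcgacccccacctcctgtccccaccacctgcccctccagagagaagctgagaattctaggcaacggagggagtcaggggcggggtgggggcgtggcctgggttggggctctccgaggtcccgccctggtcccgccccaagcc

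In the 250 bases before the RefSeq start, Calcrl held AGGAAG 66 to 61 bases before the start on the gene's strand. Ramp3 held it 182 to 177 bases before the start on the other strand. Among all 32851 windows of this length in the table, 29.5% held these letters, and the 2 members that hold them, Calcrl and Ramp3, moved in opposite directions. Of the other motifs searched, none was found in the 4 windows. The letters AGATAA, bound by GATA factors, were in 9.99% of all windows. For AP-1 the letters were TGANTCA, which 6.75% of windows held. The core of a hypoxia response element, ACGTG, was in 16.6%. A cyclic AMP response element was searched as TGACGTCA, in 1.55%. Both strands were searched, and a match is a description of the letters only.

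The libraries held 11397439 to 16851485 counts. Values are given as CPM, the count of a gene relative to the total of its library, after scaling by the trimmed mean of M values (TMM), so that 3 counts in a library, taken as the floor of detection, correspond to 0.177 to 0.254 CPM. Changes are log2 fold changes of d4 over d2 from a fit of all 14932 genes that passed the filter, with their standard errors (SE) and with p-values adjusted over all of these genes. A gene is called changed where the adjusted p is under 0.01. Of all genes tested, 12.9% were called higher at d4, 11.3% lower and 24.3% in either direction. Of the 4 members tested, 3 were called higher and 1 lower. Adm passed the filter only through its d4 counts and Ramp3 only through its d2 counts. At their low counts on the other day, neither would have been tested without being higher on the day that passed. With a single d2 library the same test called none of the 14932 genes, while 6343 genes without d2 replicate 1 and 6012 without d2 replicate 2 had an unadjusted p under 0.05. The loss of the members' calls without a d2 library, given below, goes with that.

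**Figure D1:**
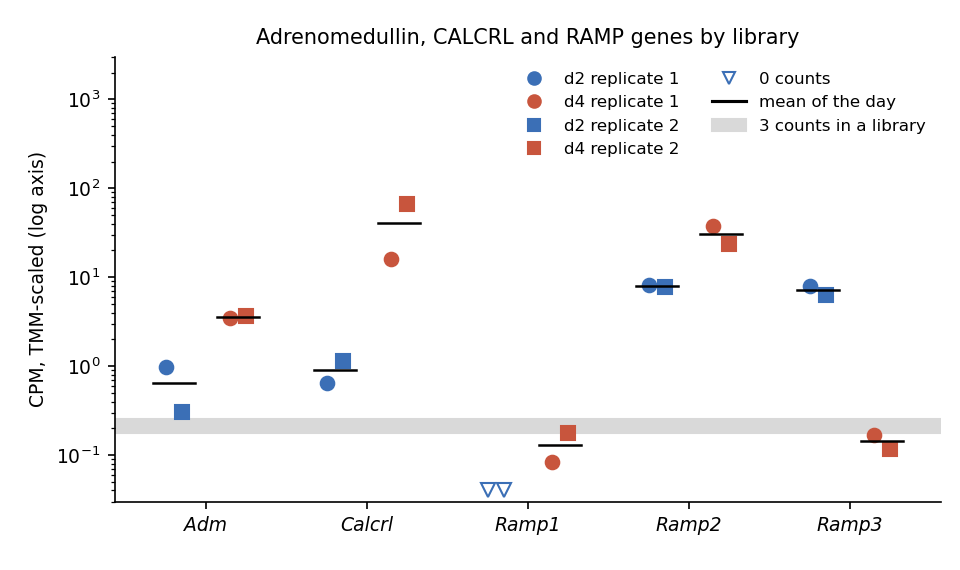
CPM of the 5 genes in each library on a log axis, with d2 in blue and d4 in red, circles for replicate 1, squares for replicate 2, a black bar for the mean of the day and a grey band for the level of 3 counts. Adm, Calcrl and Ramp2 sit higher in both d4 libraries than in both d2 libraries, Ramp3 drops below the band at d4, and Ramp1 never rises above it (open triangles mark its 0 counts at d2).

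Adm, the gene of the ligand, was low on both days. It had 12 and 4 counts in the d2 libraries against 41 and 63 counts in the d4 libraries, which are 0.981 and 0.304 CPM at d2 against 3.47 and 3.71 CPM at d4. The days did not overlap, and the d4 libraries lay close together (3.59 ± 0.17 CPM, SD, n = 2) while the d2 libraries differed 3.23-fold (0.643 ± 0.479 CPM, SD, n = 2). Adm rose by 2.49 on the log2 scale (SE 0.50, edgeR adjusted p = 0.00771), or 5.60-fold. The ratio of the summed counts was 5.73 with an exact 95% counting interval of 3.37 to 10.4. The d2 libraries decide the size of this change: it was 3.53 without d2 replicate 1 (adjusted p = 0.0301) and 1.82 without d2 replicate 2 (adjusted p = 0.0613). With the size factors of DESeq2 in the same fit the value was 2.48 and the adjusted p 0.0117, over the threshold.

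Calcrl, the gene of the receptor, had the largest increase of the members. It had 8 and 15 counts at d2 against 189 and 1122 counts at d4. These are 0.654 and 1.14 CPM at d2 against 16.0 and 66.0 CPM at d4. The lower d4 library was still 14.0 times the higher d2 library, so the days did not overlap, but d4 replicate 2 was 4.13 times d4 replicate 1. Calcrl rose by 5.50 on the log2 scale (SE 0.78, edgeR adjusted p = 0.00173), or 45.2-fold, and the ratio of summed counts was 50.2 (exact 95% counting interval 33.3 to 79.5). The size depends on which d4 library is read: the log2 change was 6.18 without d4 replicate 1 and 4.13 without d4 replicate 2. Without d2 replicate 1 it was 5.19 with an adjusted p of 0.0934, and without d2 replicate 2 it was 5.94 with an adjusted p of 0.0869.

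As scaled by TMM, the spread of Calcrl between the d4 libraries was not shared by the tested markers of endothelial cells (EC). Of 15 EC markers tested, 1, the claudin gene Cldn5, was higher in d4 replicate 2, and the ratio of replicate 2 to replicate 1 ran from 0.501 to 1.24 with a median of 0.708. Ramp2, at 0.615, lay within that range, and Calcrl, at 4.10 on the same scale (log2 CPM with a prior count of 2), lay outside it. Among the 10388 genes over 5 CPM at d4, 181 had a ratio as high as that of Calcrl. Replicate 2 minus replicate 1 moved with the GC content of genes, with a Spearman correlation across genes of -0.708 at d2 and -0.486 at d4. The longest transcript of Calcrl holds 37.8% G and C, and that of Ramp2 56.7%. Those of the 15 EC markers hold 42.8% (Cd34) to 60.9% (Sox18), all more than that of Calcrl. When a smooth trend of each library on GC content and length was removed, the ratio of the d4 libraries fell to 1.83 for Calcrl and was 0.732 for Ramp2, and 324 genes were as high as Calcrl. The EC markers then ran from 0.526 to 1.52 with a median of 0.802, and 3 of them were higher in d4 replicate 2. The change from d2 to d4 with the trend removed was 5.78 (SE 0.41, edgeR adjusted p = 1.06e-04) for Calcrl.

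**Figure D2:**
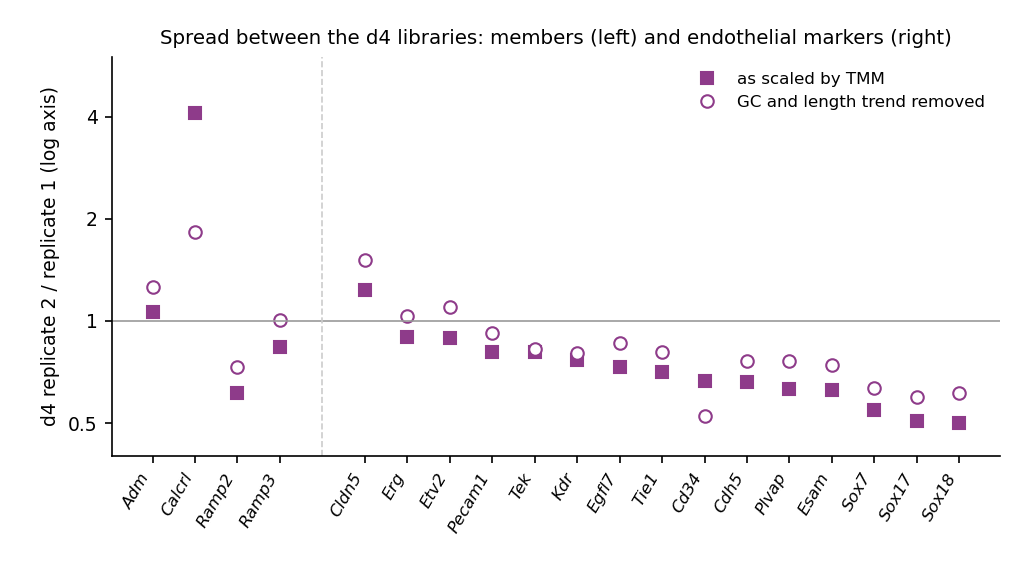
Ratio of d4 replicate 2 to d4 replicate 1 on a log axis for the 4 tested members (left) and 15 EC markers (right), as scaled by TMM (filled squares) and after removal of the trend on GC content and length (open circles). Calcrl stands at 4.10 and at 1.83 after removal, against a highest EC marker of 1.24 and 1.52.

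Ramp1, the partner that turns CALCRL into a CGRP receptor, had 0 counts in both d2 libraries and 1 and 3 counts in the d4 libraries. These are 0.0846 and 0.177 CPM at d4, at or under the floor of 3 counts, so no fold change is given and Ramp1 was not detectable above that floor on either day at this depth. When all genes with a count were tested, its adjusted p was 0.303.

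Ramp2, the partner of CALCRL in the main adrenomedullin receptor of endothelium, was detected on both days. It had 99 and 103 counts at d2 against 451 and 398 counts at d4, or 8.10 and 7.82 CPM at d2 against 38.2 and 23.4 CPM at d4. The d2 libraries were nearly equal (7.96 ± 0.19 CPM, SD, n = 2), the d4 libraries differed 1.63-fold, and the lower d4 library was 2.89 times the higher d2 library. Ramp2 rose by 1.95 on the log2 scale (SE 0.30, edgeR adjusted p = 0.00241), or 3.86-fold. The ratio of summed counts was 3.70 (exact 95% counting interval 3.17 to 4.34). The value was 1.97 without d2 replicate 1 (adjusted p = 0.0554) and 1.87 without d2 replicate 2 (adjusted p = 0.0613).

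Ramp3, the other RAMP of adrenomedullin receptors, moved the opposite way. It had 98 and 83 counts at d2 and 2 counts in each d4 library, or 8.01 and 6.30 CPM at d2 against 0.169 and 0.118 CPM at d4. Both d2 libraries were far above the floor and both d4 libraries under it. Ramp3 fell by 5.59 on the log2 scale (SE 0.45, edgeR adjusted p = 1.79e-04). The summed counts were 51.3 times higher at d2, with an exact 95% counting interval of 19.7 to 190 that reflects the 4 counts at d4. The value was -5.40 without d2 replicate 1 (adjusted p = 0.0188) and -5.80 without d2 replicate 2 (adjusted p = 0.0177). In these bulk samples, fewer cells of a type and less RNA per cell cannot be told apart.

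Levels of different genes were compared as CPM per kilobase of merged exons. At d2 the order was Ramp3 (5.81 and 4.57), Ramp2 (2.45 and 2.37), then Adm (0.606 and 0.188) and Calcrl (0.134 and 0.233), whose libraries overlapped. At d4 Ramp2 (11.6 and 7.09) and Calcrl (3.28 and 13.5) overlapped at the top, and their order was reversed between the libraries. With the length of the longest transcript the order was not reversed: Ramp2 was then 7.88 times Calcrl in replicate 1 and 1.17 times in replicate 2. Adm (2.14 and 2.29) came next, and Ramp3 (0.123 and 0.0853) and Ramp1 (0.0280 and 0.0584) were near 0. Per length, the RAMP sum was 61.6 and 29.7 times Calcrl in the d2 libraries. At d4 it was 3.58 times Calcrl in replicate 1 and 0.535 times in replicate 2, or 7.93 and 1.18 times with the longest transcript.

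The composition of the RAMP counts changed from a mixture of Ramp3 and Ramp2 to Ramp2 almost alone. Ramp2 made up 29.7% and 34.2% of the RAMP counts per length in the d2 libraries against 98.7% and 98.0% in the d4 libraries. Ramp3 made up 70.3% and 65.8% at d2 and 1.05% and 1.18% at d4, and Ramp1 at most 0.807%. The share of Ramp2 was 66.4 percentage points higher at d4 (31.9% ± 3.2 against 98.4% ± 0.5, SD, n = 2), with an exact two-sided permutation p of 0.333, the smallest that 2 against 2 libraries allow. As a share of raw counts, Ramp2 made up 50.3% (exact 95% interval 43.1 to 57.4%) and 55.4% (47.9 to 62.7%) at d2, and 99.3% (98.1 to 99.9%) and 98.8% (97.1 to 99.6%) at d4. Whether Ramp2 or Ramp3 was the larger at d2 thus depends on the length used. With only the exons of Ramp2 that are not shared with Vps25, a length chosen after seeing the data, its share was 38.8% and 43.8% at d2 and 99.1% and 98.7% at d4. The intervals cover counting error only.

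**Figure D3:**
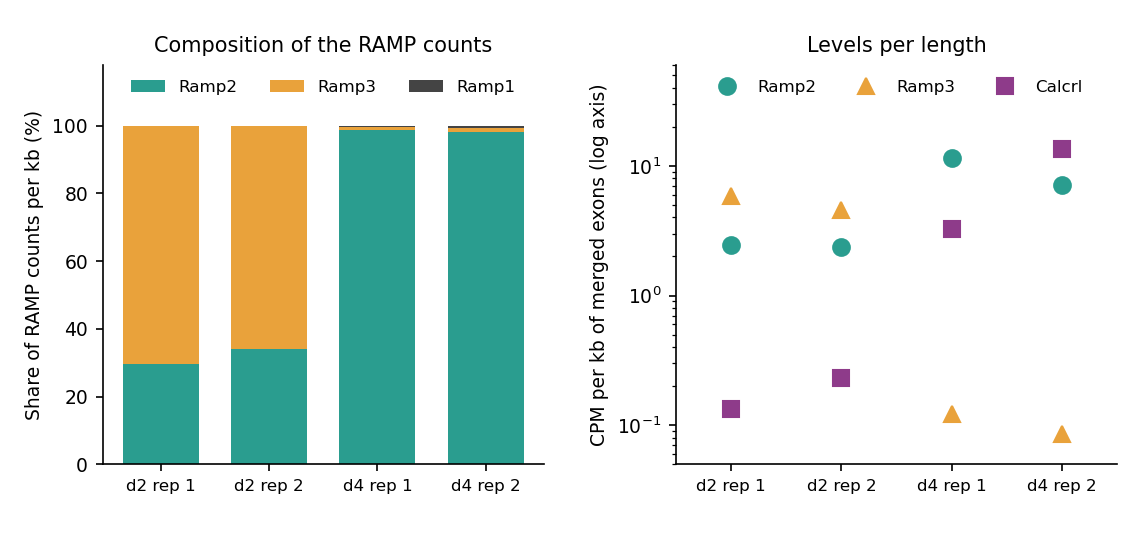
Left, share of each RAMP in the RAMP counts per kilobase of merged exons (%) in each library: Ramp3 fills most of the bar in the d2 libraries (70.3% and 65.8%) and Ramp2 nearly the whole bar at d4 (98.7% and 98.0%). Right, CPM per kilobase of Ramp2, Ramp3 and Calcrl by library on a log axis, where Ramp2 lies above Calcrl in d4 replicate 1 and below it in d4 replicate 2 (with the longest transcript as length, above it in both).

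The nearest relatives of the members in the calcitonin peptide family moved apart. Calca, the gene of calcitonin and alpha-CGRP, had 254 and 328 counts at d2 against 5 and 3 counts at d4, and fell by 6.29 on the log2 scale (SE 0.41, adjusted p = 9.91e-05). Counts per gene cannot separate its calcitonin and CGRP transcripts. Adm2, the gene of intermedin, another ligand of CALCRL, had 7 and 6 counts at d2 against 14 and 16 at d4 and was not called (1.02, SE 0.46, adjusted p = 0.128). Calcb (beta-CGRP), with 1 count in all, and Iapp (amylin), with 0 counts in every library, did not pass the filter.

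Among receptor subunits outside the members, Calcr, the calcitonin receptor gene, went down together with Ramp3. It had 121 and 202 counts at d2 against 4 and 18 at d4, and fell by 4.08 (SE 0.50, adjusted p = 9.57e-04). Crcp, which encodes a cytosolic component of CGRP receptors that also belongs to RNA polymerase III, was not called (-0.68, SE 0.20, adjusted p = 0.0359). So Calca, Calcr and Ramp3 fell while Adm, Calcrl and Ramp2 rose, each past the threshold with TMM scaling. With the size factors of DESeq2 in edgeR, Adm was over it (adjusted p = 0.0117). Like Ramp3, Calca lay under the 0.5 CPM of the filter at d4, so only its d2 counts brought it into the test. For Adm only the d4 counts did so.

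Both genes on the list of other adrenomedullin receptors were higher at d4, where 12.9% of all genes tested were called higher. Ackr3, an atypical receptor that binds adrenomedullin and CXCL12 and takes them up, had 18 and 19 counts at d2 against 2184 and 3260 at d4 (log2 change 7.00, SE 0.25, adjusted p = 3.96e-05). Per length it stood at 55.2 and 57.3 CPM per kilobase at d4, above Calcrl in both libraries. Gpr182, an endothelial receptor once proposed to bind adrenomedullin, had 1 and 2 counts at d2 against 22 and 24 at d4 (3.68, SE 0.59, adjusted p = 0.00293). It lay under 0.5 CPM in both d2 libraries, so only its d4 counts brought it into the test.

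Adrenomedullin is cut from a precursor by proprotein convertases, is amidated by PAM and is broken down by peptidases on the cell surface. Of 11 genes of peptide maturation and clearance tested, 4 rose, 4 fell and 3 were not called, with a median log2 change of 0.79 against -0.03 for all genes tested. Over all genes tested, 12.9% were called higher and 11.3% lower. Pam, which encodes the amidating enzyme, had 157 and 198 counts at d2 against 609 and 661 at d4 (log2 change 1.70, SE 0.24, adjusted p = 0.00182). Among the convertases, Pcsk5 rose by 6.85 (SE 0.40, adjusted p = 7.09e-05), and Pcsk1 (-5.44, SE 0.52, adjusted p = 3.52e-04) and Pcsk6 (-2.42, SE 0.34, adjusted p = 0.00179) fell. Pcsk1 lay under 0.5 CPM in both d4 libraries, so only its d2 counts brought it into the test. Of the enzymes with known activity on small peptides, Ece1 rose by 1.84 (SE 0.23, adjusted p = 0.00106), and the carboxypeptidase gene Cpe (-1.39, SE 0.24, adjusted p = 0.00369) and Ide, the gene of insulin-degrading enzyme (-1.02, SE 0.19, adjusted p = 0.00583), fell. Mme, the gene of neprilysin, which degrades adrenomedullin, also rose, but like Calcrl it was far higher in one d4 library, with 178 and 1168 counts.

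**Figure D4:**
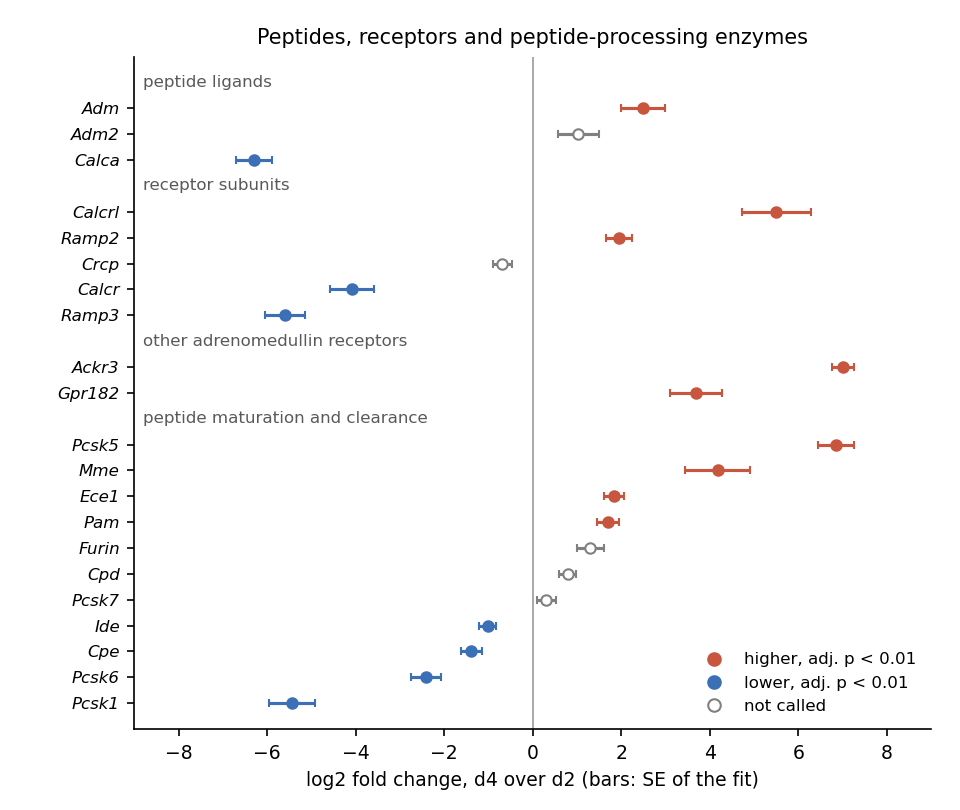
Log2 fold change of d4 over d2 with its SE for the tested genes of 4 lists, red where called higher, blue where called lower and open grey where not called. Adm, Calcrl and Ramp2 lie right of 0 at 2.49, 5.50 and 1.95, with Calca, Calcr and Ramp3 on the left at -6.29, -4.08 and -5.59.

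RAMPs also bind receptors other than CALCRL. Of 11 such genes on the list, 6 passed the filter and 2 of these rose, where 12.9% of all genes tested were called higher. Pth1r, the parathyroid hormone receptor gene, had 20 and 15 counts at d2 against 232 and 379 at d4 (log2 change 3.91, SE 0.31, adjusted p = 1.64e-04). Casr, the calcium-sensing receptor gene, went from 1 count over both d2 libraries to 56 and 92 counts at d4 (adjusted p = 3.52e-04). With its d2 level under 0.5 CPM, only the d4 counts of Casr brought it into the test. Glp1r (-1.74, SE 0.49), Vipr1 (-1.05, SE 0.41), Gipr (-0.52, SE 0.40) and Vipr2 (1.78, SE 0.58) were not called.

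Of 24 tested genes of cyclic AMP signalling, the pathway through which the receptor signals, 7 rose, none fell and 17 were not called (median log2 change 0.37), where 24.3% of all genes tested were called in either direction. With upper-quartile factors 6 rose and 1 fell, and with DESeq2 8 rose and 1 fell. Prkar2b, a regulatory subunit of protein kinase A, rose by 3.30 (SE 0.22, adjusted p = 1.07e-04), Adcy4, an adenylyl cyclase of endothelium, by 3.95 (SE 0.47, adjusted p = 8.13e-04) and Adcy6 by 1.68 (SE 0.29, adjusted p = 0.00373). Gnas, the gene of the Gs alpha subunit through which CALCRL signals, was among the 7 (1.26, SE 0.22, adjusted p = 0.00402). Of 11 genes of receptor desensitization and recycling, which include the kinases and arrestins that act on CALCRL, 1 was called: Slc9a3r1, the gene of NHERF1, a scaffold that binds the tail of RAMP3, had 1700 and 1565 counts at d2 against 498 and 581 at d4 and fell by 1.76 (SE 0.22, adjusted p = 9.78e-04). It moved in the same direction as Ramp3.

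Adm is a known target of hypoxia-inducible factors, so genes of the hypoxia response were set beside it. Of 17 tested, 9 rose, none fell and 8 were not called (median log2 change 1.03, against -0.03 for all genes tested). Of all genes tested, 12.9% were called higher. Vegfa (4.21, SE 0.23, adjusted p = 6.64e-05), P4ha1 (3.64, SE 0.23, adjusted p = 8.61e-05) and Epas1, the gene of HIF-2 alpha (4.35, SE 0.35, adjusted p = 1.78e-04), changed more than Adm at 2.49. The VEGF added for d4 was human by the study's methods. The gene of HIF-1 alpha, Hif1a, was not called (-0.50, SE 0.37). Whether a hypoxia response enters the change of Adm was not tested.

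Calcrl was also placed among 15 G protein-coupled receptors known from vessels, of which 10 rose, 2 fell and 3 were not called. Over all genes tested, 12.9% were called higher and 11.3% lower. Aplnr (9.11), Cxcr4 (7.02) and Ackr3 (7.00) rose with the smallest adjusted p. The 2 that fell were F2rl1 (-5.37) and Ptger4 (-3.94). Aplnr, S1pr1, Adgrl4 and Adgra2 lay under 0.5 CPM in both d2 libraries, so only their d4 counts brought them into the test. Ptger4 lay under 0.5 CPM in both d4 libraries and was tested only through its d2 counts. Per length Calcrl ranked 7 of 15 in d4 replicate 1 and 6 of 15 in d4 replicate 2. F2r, the thrombin receptor, led in both libraries at 165 and 176 CPM per kilobase, and Aplnr, the apelin receptor, stood at 60.8 and 47.8. In d4 replicate 1 the neighbours of Calcrl in this order were S1pr1 above (7.50) and Adgrl4 below (3.16). In d4 replicate 2 they were Adgra2 above (20.9) and S1pr1 below (5.56). Both d4 values of S1pr1 fell within the spread of Calcrl.

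Markers of several cell types moved with the members. Over all genes tested, 12.9% were called higher and 11.3% lower. Of 15 EC markers tested, 13 rose and none fell, and their summed level went from 36.3 to 42.1 CPM at d2 to 1107 to 1497 CPM at d4, while Emcn had 0 to 3 counts per library. Of the lymphatic markers, Prox1 and Flt4 rose, Pdpn fell and Lyve1 had at most 3 counts. All 10 markers of primitive blood rose, 4 of 7 tested mural markers rose and 1, Cnn1, fell, and of 10 pluripotency markers 8 fell and none rose. All 4 tested neuroectoderm markers fell. However, Pax6, Sox1 and Elavl3 lay under 0.5 CPM in both d4 libraries, so only their d2 counts brought them into the test. In reverse, rising markers under 0.5 CPM in both d2 libraries, such as Cdh5 and Gata6, were tested only through their d4 counts. On the endoderm list, 3 of 8 genes passed the filter, and all 3 rose: Gata6, Sox17 and Cxcr4. Sox17 is also on the EC list, and Cxcr4 is also among the vessel receptors above. Foxa2, Afp, Ttr, Apoa1 and Amn did not pass the filter, with 0 to 12 counts per library. Of the trophoblast list, 4 of 5 tested genes rose, with Prl3d1 and Prl2c2 at 0 counts in every library and Tpbpa at 1. How far a change in the mixture of cells enters the values of Adm, Calcrl, Ramp2 and Ramp3 was not tested.

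The genes whose profile over the 4 libraries was most like that of a member were found by the Euclidean distance of centred log2 CPM among 10707 genes. For Calcrl these were Edil3 (distance 0.878), Sema3a (0.895) and Cdh6 (0.958), all of which were also higher in d4 replicate 2 than in replicate 1. Their longest transcripts hold 38.0%, 40.8% and 42.4% G and C, beside 37.8% for Calcrl. For Ramp2 they were Lrrc8c (0.144), Fbxo6 (0.157) and Zfp362 (0.162), and for Adm they were Samd14 (0.389), Cuedc1 (0.450) and Ryr2 (0.450). For Ramp3 they were Hsf2bp (0.138), Grik3 (0.161) and Sox3 (0.233), so Ramp2 and Ramp3 had nearer genes than Calcrl and Adm. With 4 libraries of 2 days these distances describe the profiles only.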

How the data were processed

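The deposited table holds raw counts per gene for 4 strand-specific, paired-end RNA-seq libraries. Per the study's methods, the authors trimmed reads with cutadapt, aligned them to mm10/GRCm38 with STAR and counted reverse-stranded reads with featureCounts, leaving out reads with several places or several genes. The methods name the annotation both as GENCODE M10 and as Ensembl release 102, and symbols, lengths and positions here are from GENCODE M21, which matched 55227 of 55487 genes. Following the study, a gene entered the test if its counts, summed over the libraries of d2 or of d4, exceeded 0.5 CPM in a one-sided proportion test (adjusted p under 0.05). The comparison used R 4.3.3 and edgeR 4.0.16 (TMM, glmQLFit, glmQLFTest, day as the only term, two-sided, Benjamini-Hochberg adjustment over 14932 genes). DESeq2 1.42.0 and limma 3.58.1 (voom) were alternatives, and mgcv 1.9.3 fitted the trends on GC content and length. The procedure was tested on simulated data. The members and gene lists were chosen with earlier results of these data known. Apart from the lists of cell type markers, lists of at most 6 tested genes were named whole. Of longer lists, up to 3 called genes per direction with the smallest adjusted p were named. Other genes were named after their values were seen.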

Additional observations from a re-analysis of the deposited data

How the results depend on the processing

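Adm, Calcrl and Ramp2 stayed higher and Ramp3 lower at d4 under every alternative run. Of 12 alternatives that kept all libraries, each left Calcrl, Ramp2 and Ramp3 past the threshold, with log2 changes of 5.20 to 5.84, 1.87 to 1.99 and -5.73 to -5.36. Adm lost its call in 1 of them, the size factors of DESeq2 in edgeR (2.48, adjusted p = 0.0117). The alternatives at an adjusted p under 0.05 and with a log2 change of at least 1 reused the main fit. Their calls of the members therefore followed from that fit. Over all genes, 3627 calls became 5774 with no filter on low counts, 5670 at an adjusted p under 0.05, 6974 where the fit held the replicate block and 6865 with the block and the trend on GC content and length removed together. The block called 13 genes of cyclic AMP signalling instead of 7 (10 higher and 3 lower). It also gave all 5 receptor subunits tested as called (2 higher and 3 lower, Crcp included), 11 hypoxia genes higher and 1 lower, and 1 receptor that binds RAMPs lower. Under it the members stood at 2.52 for Adm, 5.43 for Calcrl, 1.91 for Ramp2 and -5.57 for Ramp3, and no member's call changed. The labels do not say that a number marks an experiment, and the deviations of the same-numbered libraries correlated at 0.482. When each library was left out in turn, edgeR gave 0 to 4744 calls over all genes and 0 to 4 members called, with log2 changes of 1.82 to 3.53 for Adm, 4.13 to 6.18 for Calcrl, 1.56 to 2.26 for Ramp2 and -5.82 to -5.32 for Ramp3. Both counts of 0 came without a d2 library. DESeq2 gave 1707 to 2725 calls (1779 without d2 replicate 1 and 2383 without d4 replicate 1) and 2 to 3 members called, with 1.86 to 3.56 for Adm, 4.14 to 6.23 for Calcrl, 1.59 to 2.25 for Ramp2 and -5.90 to -5.41 for Ramp3. With DESeq2, Adm was called in none of these 4 fits (adjusted p = 0.0205 to 0.271, with 2.56 without d4 replicate 1 and 2.43 without d4 replicate 2), and Ramp2 was not called without d2 replicate 1 (1.96, adjusted p = 0.0105) or 2 (1.91, adjusted p = 0.0114). A day with 1 library left is assumed to vary like the other. The causes were not tested. The level of Ramp1 at d4, 0.131 CPM, was 0.0846 to 0.177 CPM with one d4 library. The difference in the share of Ramp2 was 46.2 to 60.3 percentage points with other lengths and 64.2 to 68.7 without one library. Depth limits the values of Ramp1 on both days, Ramp3 at d4, and Adm and Calcrl at d2, which rest on 0 to 15 counts per library.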
